A study of Mus musculus with 28 samples.

Results

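The 10 genes described here, Scgb1a1, Bpifa1, Muc2, Muc5b, Muc5ac, Tff1, Tff2, Tff3, Spdef and Agr2, encode secreted products of airway and goblet cells and the machinery that makes them. They were chosen by symbol from the 55011 gene symbols of a count table, and all 10 were found. The table covers 28 bulk RNA-seq libraries of medullary thymic epithelial cells (mTECs) sorted from mouse thymus, the stromal cells that transcribe genes of many peripheral tissues. Each library came from 1000 cells on a C57BL/6 background. From wild-type (WT) thymus, cells of an entero-hepato gate (n = 3) were set against cells of a non-entero-hepato gate (n = 3). The other libraries came from mice that all carried Foxn1cre(+/-), a driver active in thymic epithelium. Of these, mTEClo cells, which the labels call post-Aire, were sorted from double mutants (Hnf4a fl/fl, Hnf4g -/-, n = 4), Hnf4g-removed mice (Hnf4a fl/+, Hnf4g -/-, n = 3), Hnf4a-removed mice (Hnf4a fl/fl, Hnf4g +/-, n = 3) and controls (Hnf4a fl/+, Hnf4g +/-, n = 4). Cells labelled mTEChi were sorted from double mutants (n = 4) and controls (n = 4) of the same genotypes. The controls therefore carried 1 intact allele of each gene. The labels write the Hnf4g allele as a plain deletion and not as floxed, and nothing in them tells whether replicate libraries stem from different mice. The p-values below therefore measure a spread among libraries that may be technical.

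Airway and gut surfaces are coated with mucus, a gel of very large glycoproteins called gel-forming mucins. Goblet and club cells secrete them together with small proteins such as the trefoil factors and secretoglobins. In these cells the transcription factor SPDEF drives goblet differentiation, and AGR2, a protein disulfide isomerase of the endoplasmic reticulum, is needed to fold mucins. In the thymus such products are made ectopically by mTECs, some through the regulator AIRE and some in mTECs that take on features of peripheral epithelia, and this display bears on T cell tolerance to those tissues. HNF4A and HNF4G, the nuclear receptors removed in the mutants, are known as regulators of intestinal and liver genes.

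All 10 genes were read in all 28 libraries. The lowest value was 10 reads, of Muc2 in Hnf4a-removed mTEClo replicate 3, and the highest 13700 reads, of Bpifa1 in control mTEClo replicate 1. Values are given as CPM, the reads of a gene relative to the library total after scaling by the TMM method over all libraries. Compared per length, as RPKM (CPM per kilobase of exon), the 10 genes differed widely in control mTEClo. Bpifa1, an antimicrobial surfactant protein of the upper airway, averaged 742 and Scgb1a1, the club cell secretoglobin, 301 on this per-length scale. The trefoil genes Tff1, Tff3 and Tff2 averaged 61.9, 56.0 and 18.1 and Agr2 averaged 40.7. Spdef averaged 12.7, and the mucins were lowest at 6.59 for Muc5b, 5.38 for Muc5ac and 1.11 for Muc2. The length used was all annotated exon bases of a gene, from 476 for Scgb1a1 to 14964 for Muc5b. How multiply mapped reads were counted is not given, so the order per length is approximate. In the entero-hepato gate the order had Bpifa1 at 307, Tff3 at 225, Scgb1a1 at 182 and Tff2 at 98.0 at the top, with Spdef at the bottom at 3.91.

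**Figure D1:**
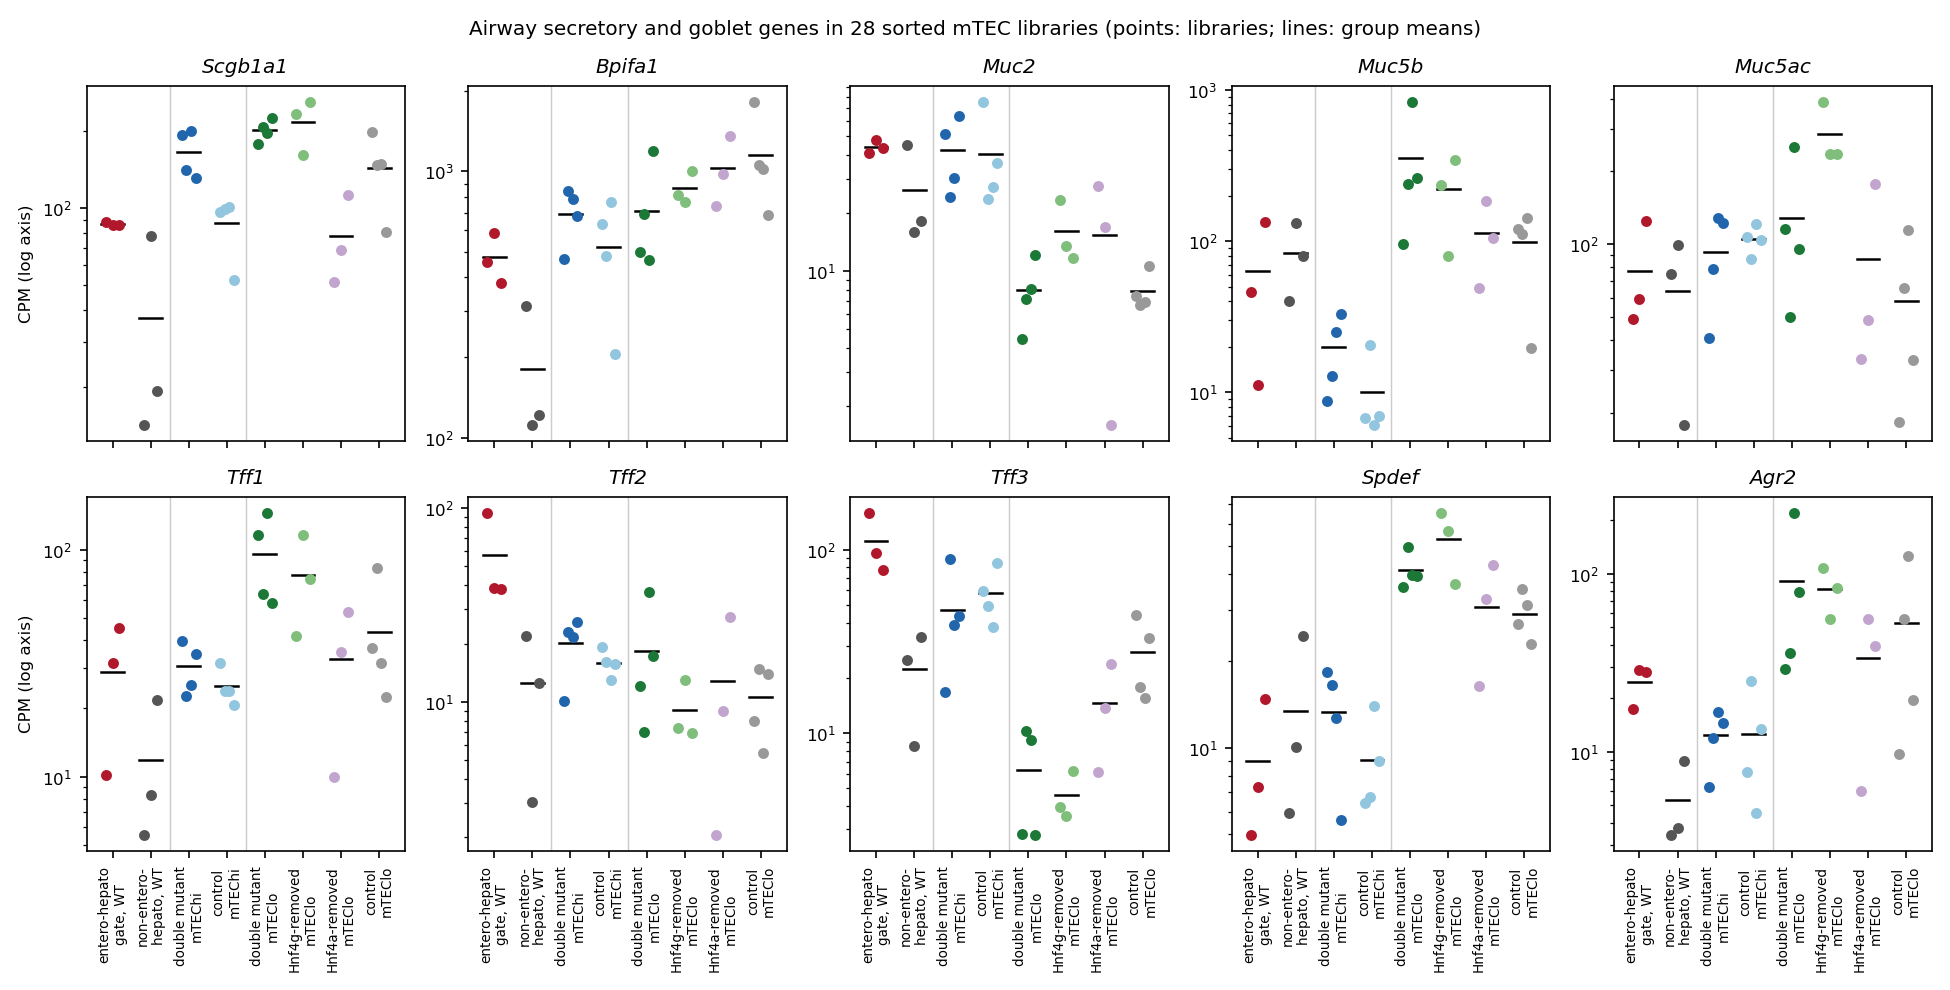
CPM of each of the 10 genes (log axis) in every library, with groups along the horizontal axis; points are libraries and lines are group means. The Tff3 panel shows all 7 Hnf4g -/- mTEClo libraries at or under 10.3 CPM, and the Muc2 panel shows all 8 mTEChi libraries at or above 23.6 CPM.

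Total counts ran from 4330120 to 8342583 per library, with the lowest totals in the non-entero-hepato gate (4330120 to 4647944). Aire averaged 897 ± 212 CPM in the entero-hepato gate and 1675 ± 55.1 CPM in the non-entero-hepato gate (SD, n = 3 each), and 1687 ± 365 CPM in control mTEChi against 399.7 ± 144 CPM in control mTEClo (SD, n = 4 each). Hnf4g averaged 5.18 ± 2.20 CPM in double-mutant mTEClo (n = 4), 8.06 ± 0.651 in Hnf4g-removed mTEClo (n = 3), 7.76 ± 1.49 in Hnf4a-removed mTEClo (n = 3) and 12.6 ± 2.73 in control mTEClo (n = 4), and 7.58 ± 3.57 against 19.9 ± 3.31 CPM in double-mutant and control mTEChi. Hnf4g was thus as low in Hnf4a-removed mTEClo, which are Hnf4g +/-, as in Hnf4g-removed mTEClo. Hnf4a averaged 3.12 ± 0.822 CPM in double-mutant, 3.34 ± 0.881 in Hnf4g-removed, 3.40 ± 1.16 in Hnf4a-removed and 4.60 ± 2.06 in control mTEClo, and 4.10 ± 2.32 against 4.49 ± 3.02 CPM in double-mutant and control mTEChi. These counts cover whole genes and the sources used here do not give the deleted parts, so the counts do not check the genotypes. No library stood apart by depth.

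The first comparison asked which of these genes marked the entero-hepato gate. Of the 10, 4 were higher there and 0 lower by edgeR's quasi-likelihood test with adjusted p under 0.05, in a comparison in which 22.7% of all 16811 genes tested were called higher and 21.8% lower. The 4 were the trefoil genes Tff3 and Tff2, the mucin-folding gene Agr2 and the airway gene Bpifa1. The gel-forming mucins and Spdef did not pass. None of the 10 was lower at an unadjusted p under 0.05 or by DESeq2, and 8719 of all genes had such a p in either direction. The median log2 fold change of the 10 was 1.25, against -0.05 over all genes tested, and 8 of 10 were positive against 47.5% of all genes.

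Tff3, a trefoil peptide made by intestinal goblet cells, had 159, 96.3 and 77.2 CPM in the entero-hepato gate, against 25.0, 8.52 and 33.3 CPM in the non-entero-hepato gate. All 3 gate libraries lay above all 3 libraries outside it. Its log2 fold change was 2.29 (SE 0.42, adjusted p = 0.00244 by edgeR). Agr2 had 17.5, 28.8 and 28 CPM in the entero-hepato gate, against 3.39, 3.71 and 8.92 CPM outside it, again without overlap, for a log2 fold change of 2.19 (SE 0.41, adjusted p = 0.00247 by edgeR). Both kept their call in each alternative tried.

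Tff2, the trefoil peptide of gastric mucous neck cells, had 94.6, 38.7 and 38.4 CPM in the entero-hepato gate, against 21.8, 3.06 and 12.6 CPM in the non-entero-hepato gate. The groups did not overlap, and replicate 1 of the entero-hepato gate was the highest library. On the log2 scale the fold change was 2.17 (SE 0.58, adjusted p = 0.0145 by edgeR), and without that library it was 1.64 (adjusted p = 0.0542). Bpifa1 had 458, 584 and 382 CPM in the entero-hepato gate, against 312, 112 and 121 CPM in the non-entero-hepato gate. The groups did not overlap, with replicate 1 of the non-entero-hepato gate nearest to the other group. The log2 fold change was 1.37 (SE 0.37, adjusted p = 0.0146 by edgeR), and 1.16 without non-entero-hepato replicate 3 (adjusted p = 0.0515).

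Scgb1a1 had 88.3, 85.8 and 85.4 CPM in the entero-hepato gate, against 14.2, 77.5 and 19.3 CPM in the non-entero-hepato gate. The libraries did not overlap, but replicate 2 of the non-entero-hepato gate came close to the entero-hepato level. The gene did not pass (1.22 on the log2 scale, SE 0.52, adjusted p = 0.0889 by edgeR). It passed without that library (2.36, adjusted p = 8.76e-05), with the replicate number as a block (1.56, adjusted p = 0.0302) and with no filter on low counts (1.25, adjusted p = 1.45e-13). Tff1, the trefoil peptide of gastric surface cells, had 10.1, 31.6 and 45.1 CPM in the entero-hepato gate, against 5.51, 8.30 and 21.7 CPM in the non-entero-hepato gate. These ranges overlapped and the gene did not pass by edgeR (1.28, SE 0.60, adjusted p = 0.115), though it did by DESeq2 (adjusted p = 0.0456). Tff1 overlaps the antisense gene Gm15318, and the kit does not mark strand, so their reads cannot be told apart. Gm15318 was given 1 to 45 reads per library and Tff1 26 to 1098.

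The gel-forming mucins and Spdef overlapped between the gates. Muc2, the mucin of intestinal goblet cells, had 40.8, 47.7 and 43.2 CPM in the entero-hepato gate, against 45.0, 15.9 and 18.2 CPM in the non-entero-hepato gate. Replicate 1 of the non-entero-hepato gate lay within the entero-hepato range and the other two below it. Its log2 fold change was 0.72 (SE 0.35, adjusted p = 0.127 by edgeR), and 1.35 without that library (adjusted p = 0.00119). Muc5ac, the surface mucin of stomach and airway, had a log2 fold change of 0.27 (95% interval -0.96 to 1.51). Muc5b, the main mucin of airway glands and club cells, had -0.40 (-2.02 to 1.22), and Spdef -0.58 (-1.88 to 0.71). These intervals include changes of more than 2-fold in at least 1 direction.

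**Figure D2:**
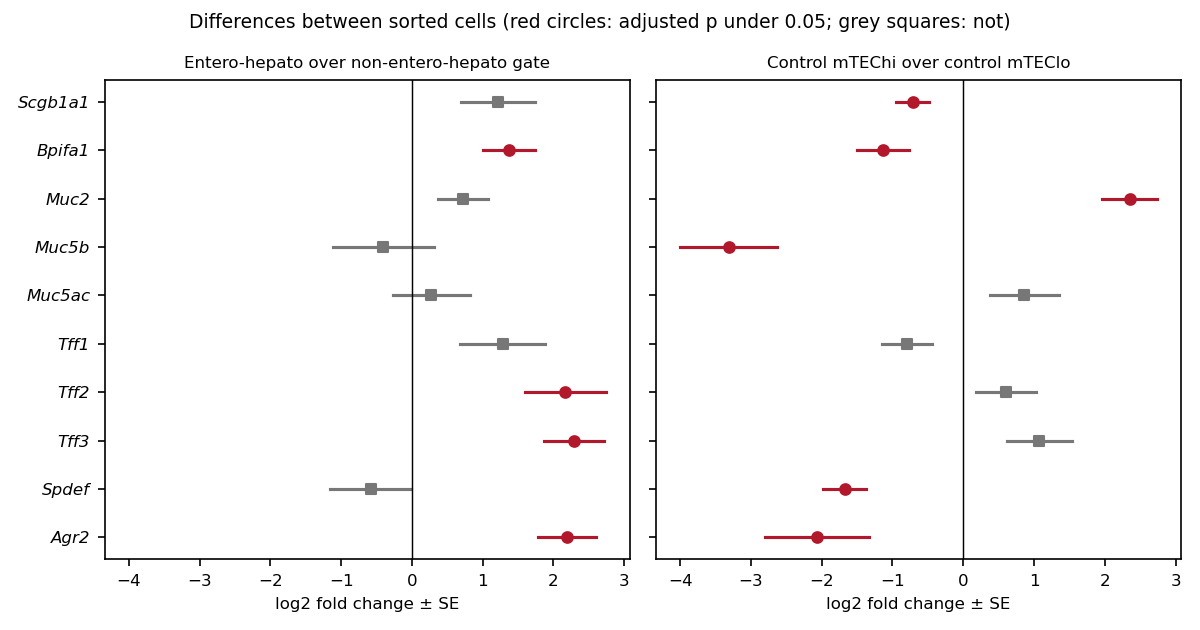
Log2 fold changes with SE (horizontal axis) of the 10 genes between the wild-type gates (left) and between control mTEChi and control mTEClo (right); red circles mark adjusted p under 0.05 and grey squares the others. Agr2 and Bpifa1 lie right of 0 between the gates (2.19 and 1.37) and left of 0 between the subsets (-2.06 and -1.13).

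Lists of other secretory genes were drawn up from textbook roles, with earlier results of these data known, so their counts are descriptions. Among them the entero-hepato gate had more of the gut products. Of 10 intestinal goblet products tested, 7 were higher and 0 lower by edgeR, also at an unadjusted p under 0.05, with a list median log2 fold change of 3.16. Muc13, a membrane mucin of the gut, averaged 1113 ± 288 CPM in the entero-hepato gate and 25.4 ± 2.88 CPM in the non-entero-hepato gate (SD, n = 3 each). Spink4, a goblet cell peptide, had a log2 fold change of 4.33 (SE 0.17) and Dmbt1, a secreted scavenger receptor of mucosal surfaces, 4.19 (SE 0.26). Fcgbp, a mucus protein of goblet cells, was higher by less, at 0.75 (SE 0.08).

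Of 16 airway secretory partners tested, 7 were higher and 2 lower, with Pigr, the transporter of secretory antibodies, at 2445 ± 635 CPM in the entero-hepato gate against 111 ± 38.8 CPM outside it. The club cell cytochrome Cyp2f2 was lower, at 25.0 ± 17.4 CPM in the entero-hepato gate and 163 ± 43.3 CPM in the non-entero-hepato gate. Of 15 genes for mucin folding, glycosylation and granules, 8 were higher and 0 lower, also at an unadjusted p under 0.05, among them the glycosyltransferases B3gnt3 (log2 fold change 2.65, SE 0.16) and C1galt1 (2.09, SE 0.20). Of 10 goblet and secretory transcription factors tested, 4 were higher, including Elf3 (1.63, SE 0.11) and Atoh1 (2.63, SE 0.68), a factor that specifies intestinal secretory cells. The factors Creb3l4 (-1.78, SE 0.30) and Ehf (-0.70, SE 0.15) were lower. Gastric products were mixed, with 3 of 6 higher and 1 lower.

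Markers of other cells differed between the gates. The summed level of 9 tuft cell markers was 156 to 336 CPM in the entero-hepato gate and 1705 to 2500.3 CPM outside it, with 7 lower and 1 higher. The 9 ciliated cell markers summed to 102 to 157 CPM against 201 to 343 CPM, with 7 lower. The 8 microfold markers were all higher, at 4269.6 to 5186 CPM in the entero-hepato gate and 1049 to 1116 CPM outside it. The 15 blood cell markers summed to 749 to 1176 CPM against 270.4 to 444 CPM, with 6 higher and 1 lower. The haemoglobin gene Hbb-bs was at 111 ± 22.0 CPM in the entero-hepato gate and 0.71 ± 0.537 CPM outside it. None of the 15 was at 0 in every library of either gate. The part of these cells in the results above was not tested, and in bulk libraries fewer cells of a type and less RNA per cell cannot be told apart.

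The second comparison set control mTEChi against control mTEClo. Sample numbers of the mTEChi libraries form a run apart from those of all other libraries. Subset and any difference between these runs therefore cannot be told apart. The genes that passed in this comparison went in both directions. By edgeR 1 was higher in mTEChi and 5 were lower, where 22.4% of 20095 genes tested were called higher and 20.5% lower (42.9% in all). Muc2 was the higher gene, and Muc5b, Spdef, Agr2, Bpifa1 and Scgb1a1 were lower. The median log2 fold change of the 10 was -0.76, against 0.04 over all genes tested.

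Muc2 had 75.0, 23.6, 27.2 and 36.3 CPM in control mTEChi, against 7.43, 6.67, 6.95 and 10.6 CPM in control mTEClo. Every mTEChi library lay above every mTEClo library, and replicate 1 of mTEChi was the highest. On the log2 scale the fold change was 2.35 (SE 0.39, adjusted p = 0.00011 by edgeR). Muc5b ran the other way, with 6.80, 20.5, 6.11 and 6.96 CPM in control mTEChi against 121, 111, 143 and 19.6 CPM in control mTEClo. Replicate 2 of mTEChi lay just above replicate 4 of mTEClo, so the groups overlapped by that pair. The log2 fold change was -3.32 (SE 0.69, adjusted p = 0.000881 by edgeR).

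Spdef had 6.43, 6.76, 14 and 9.02 CPM in control mTEChi, against 26.9, 35.6, 31.4 and 22.9 CPM in control mTEClo. The groups did not overlap, and the log2 fold change was -1.67 (SE 0.30, adjusted p = 0.000268 by edgeR). Muc2, Muc5b and Spdef kept their calls in each alternative tried, with adjusted p of at most 0.00448. Agr2 had 7.72, 24.8, 4.51 and 13.4 CPM in control mTEChi, against 9.69, 55.9, 125 and 19.6 CPM in control mTEClo. These ranges overlapped, with the mTEClo libraries spread over more than a 10-fold range. Its log2 fold change was -2.06 (SE 0.73, adjusted p = 0.0311 by edgeR), and leaving out any of 5 libraries ended the call. Without control mTEClo replicate 3 it was -1.18 (adjusted p = 0.193).

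Both airway genes were lower in mTEChi. Bpifa1 had 632, 481, 766 and 207 CPM in control mTEChi, against 1819, 1059, 1022 and 688 CPM in control mTEClo, for a log2 fold change of -1.13 (SE 0.36, adjusted p = 0.0184 by edgeR). Scgb1a1 had 96.1, 99.4, 101 and 52.2 CPM in control mTEChi, against 198, 147, 149 and 80.6 CPM in control mTEClo, for -0.72 (SE 0.23, adjusted p = 0.0196 by edgeR). In both genes the lowest mTEClo library, replicate 4, lay within the mTEChi range and the lowest mTEChi library was also replicate 4. Without control mTEClo replicate 1 neither gene passed (adjusted p = 0.0829 for Bpifa1 and 0.0852 for Scgb1a1), and Scgb1a1 also did not without control mTEChi replicate 4 (adjusted p = 0.0638).

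The remaining 4 genes did not pass by edgeR. Tff3 had 59.3, 49.1, 38.1 and 85.1 CPM in control mTEChi, against 44.2, 17.7, 15.5 and 33.0 CPM in control mTEClo, and only the lowest mTEChi and the highest mTEClo library crossed. Its log2 fold change was 1.07 (95% interval 0.11 to 2.04, adjusted p = 0.0677 by edgeR), and it passed without control mTEClo replicate 1 (1.39, adjusted p = 0.0376). Tff2 was at 0.60 (-0.29 to 1.49), Muc5ac at 0.87 (-0.16 to 1.89) and Tff1 at -0.79 (-1.54 to -0.05). Muc5ac passed without control mTEClo replicate 3 (adjusted p = 0.0301) and Tff1 without control mTEClo replicate 4 (adjusted p = 0.0266).

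The mucin genes that moved in opposite directions are neighbours. In GENCODE M21 on GRCm38, Muc6 (chr7:141633456-141655319), Muc2 (chr7:141690340-141754693), Muc5ac (chr7:141788972-141819231) and Muc5b (chr7:141839070-141873084) follow each other on chromosome 7. Muc6, a mucin of gastric glands on the opposite strand, averaged 17.9 ± 17.6 CPM in control mTEChi and 1.70 ± 0.999 CPM in control mTEClo (SD, n = 4 each), for a log2 fold change of 3.40 (SE 0.68, adjusted p = 0.000632 by edgeR). So Muc6 and Muc2 at 1 end of the cluster were higher in mTEChi and Muc5b at the other end was lower. The flanking genes Ap2a2 and Tollip, which serve endocytosis and innate signalling in many cell types, were at -0.51 (SE 0.16) and -0.50 (SE 0.10). The trefoil genes Tff3, Tff2 and Tff1 (chr17:31125306-31165277 in all) form a second cluster on chromosome 17.

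**Figure D3:**
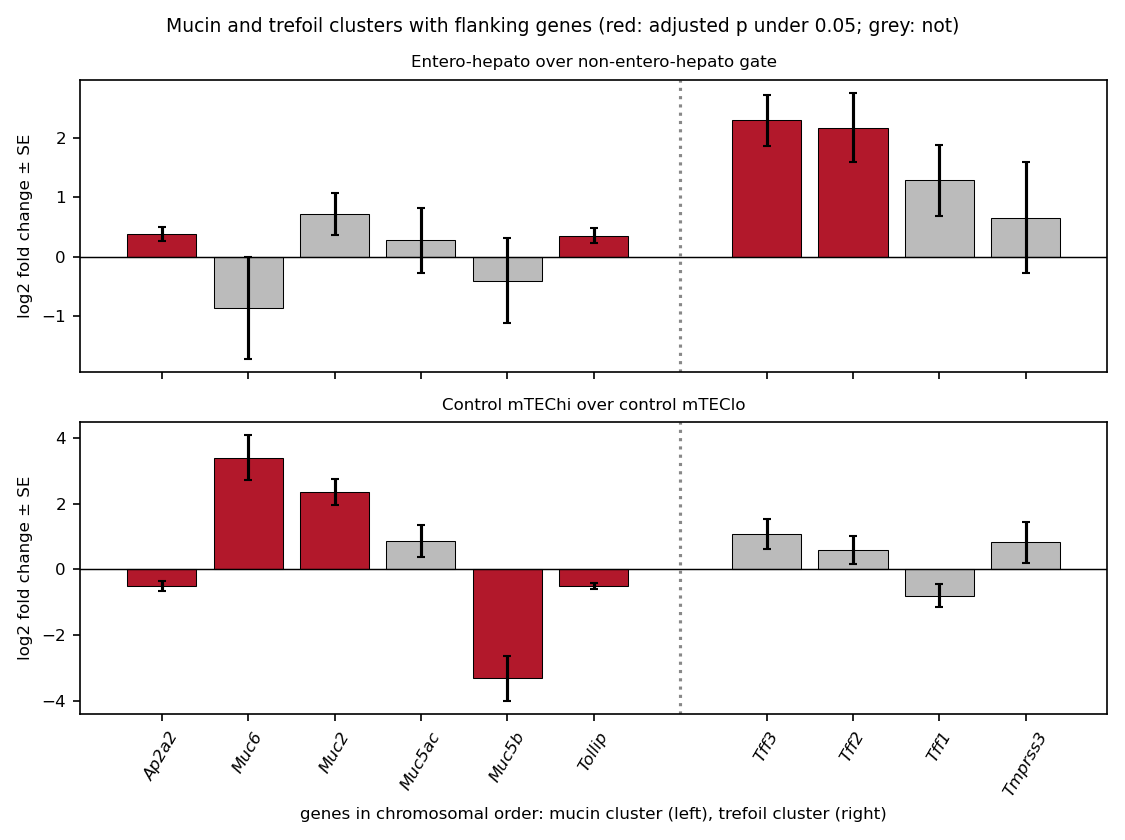
Log2 fold changes with SE (vertical axis) of the mucin and trefoil clusters and flanking genes in chromosomal order, between the wild-type gates (top) and between control mTEChi and control mTEClo (bottom); red bars have adjusted p under 0.05. In the lower panel Muc6 (3.40) and Muc2 (2.35) rise above 0 while Muc5b (-3.32) lies below it.

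RefSeq's promoter table for GRCm38.p6 held entries for 4 of the 10 genes, Bpifa1, Muc2, Agr2 and Spdef, each 250 bases before to 50 after the start. The bases before the start are shown for Muc2 (chr7:141690090-141690339, plus strand), higher in mTEChi, and for Bpifa1 (chr2:154142630-154142879, plus strand), lower in mTEChi and higher in the entero-hepato gate. Capitals mark the letters TATAAA, as in the core of a TATA box, searched on the gene's strand. The letters were matched wherever they lay in the window, so a mark does not by itself show a TATA box. They begin at position -29 from the start in Bpifa1 and -174 in Muc2. Only these exact letters were searched. The Muc2 bases also hold the similar letters tataag much nearer the start, which are left unmarked. The marks therefore do not show that Muc2 lacks a TATA element near its start.
Muc2: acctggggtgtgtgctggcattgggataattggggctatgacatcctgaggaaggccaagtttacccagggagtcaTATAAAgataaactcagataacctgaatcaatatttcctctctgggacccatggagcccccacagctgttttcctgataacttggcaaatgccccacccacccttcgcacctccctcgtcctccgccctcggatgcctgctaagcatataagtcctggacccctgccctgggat
Bpifa1: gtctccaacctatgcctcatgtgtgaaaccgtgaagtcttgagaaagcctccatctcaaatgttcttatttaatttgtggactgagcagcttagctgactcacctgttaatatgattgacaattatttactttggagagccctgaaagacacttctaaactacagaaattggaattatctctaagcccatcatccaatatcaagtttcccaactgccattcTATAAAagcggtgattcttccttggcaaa
TATAAA was held by 8.32% of the 32851 promoter windows of the table. Neither the HNF4 core CAAAGTCCA (0.475% of windows, both strands) nor its looser form CAAAGNNCA (6.36%) nor the forkhead core TGTTTAC (3.65%) was found in the 4 windows, which says only that these letters are not in these bases.

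Other secretory genes also differed between the subsets. All 8 gastric products were tested, and 7 were higher in mTEChi and 0 lower by edgeR, also at an unadjusted p under 0.05. Gkn2, a gastrokine of surface cells, had 31 to 116 reads per library in control mTEChi and 0 to 1 in control mTEClo. Cblif, the gastric intrinsic factor, averaged 14.9 ± 3.47 CPM in control mTEChi and 0.817 ± 1.38 CPM in control mTEClo, and Psca, a surface protein of gastric and other epithelia, had a log2 fold change of 1.62 (SE 0.23). Of 11 intestinal goblet products, 6 were higher and 0 lower, also at an unadjusted p under 0.05, among them Fcgbp at 4143 ± 645 CPM in control mTEChi and 1763 ± 167 CPM in control mTEClo.

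Of 17 airway partners, 4 were higher and 6 lower in mTEChi. Cyp2f2 averaged 112 ± 39.1 CPM in control mTEChi and 414 ± 57.0 CPM in control mTEClo, and the secretoglobin Scgb3a2 was lower too (log2 fold change -2.79, SE 0.60). Of 10 goblet and secretory transcription factors, 1 was higher and 6 lower. Elf3 averaged 191 ± 13.4 CPM in control mTEChi and 699 ± 55.3 CPM in control mTEClo, and Ehf (-1.99, SE 0.13) and Klf4 (-1.82, SE 0.11), epithelial factors, were lower by about as much. Of 16 genes for mucin folding, glycosylation and granules, 4 were lower and 0 higher, with 1 higher at an unadjusted p under 0.05. The 4 were Galnt6 (-0.97, SE 0.23), which starts the sugar chains of mucins, Qsox1 (-0.80, SE 0.21), which forms disulfide bonds, Bcas1 and Tmed3.

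Marker sums other than the ciliated sum also differed between the subsets. The 9 tuft markers summed to 365 to 589 CPM in control mTEChi and 6614 to 9004 CPM in control mTEClo, and all 9 were lower. The 8 keratinocyte markers summed to 188 to 245 CPM against 481 to 807 CPM, with 6 of 7 tested lower. Microfold markers (8) summed to 1772 to 2618 CPM against 3187 to 4453 CPM, with 1 higher and 3 lower. Sums of the 9 ciliated markers overlapped, at 185 to 265 CPM against 207 to 324 CPM, with 2 higher and 5 lower. The 15 blood cell markers summed to 1246 to 1704 CPM in control mTEChi and 354 to 631 CPM in control mTEClo, with 12 higher and 1 lower, and each was detected in at least 1 library of either group. The part of these cells in the differences of the 10 genes was not tested.

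The mutant comparisons asked whether these genes need Hnf4a or Hnf4g. In double-mutant against control mTEClo, 0 of the 10 genes passed edgeR in either direction, where 0.16% of 18775 genes tested were called higher and 0.581% lower (0.74% in all). Unadjusted p was under 0.05 for 4 of the 10, Tff3, Muc5b, Tff1 and Bpifa1, and for 2315 of all genes tested. DESeq2 called 1 of the 10, Tff3.

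Tff3 had 2.82, 10.3, 9.14 and 2.77 CPM in double-mutant mTEClo, against 44.2, 17.7, 15.5 and 33.0 CPM in control mTEClo. All 4 double-mutant libraries lay below all 4 controls. On the log2 scale the fold change was -2.14 (SE 0.49, adjusted p = 0.0575 by edgeR in the fit of 14 mTEClo libraries). The gene passed in an edgeR fit of these 2 groups alone (adjusted p = 0.0344) and by DESeq2 (adjusted p = 0.000773).

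Muc5b had 95.5, 238, 830.0 and 262 CPM in double-mutant mTEClo, against 121, 111, 143 and 19.6 CPM in control mTEClo. The groups overlapped, with 3 of 4 double-mutant libraries above every control and replicate 3 far above the rest. The log2 fold change was 1.84 (SE 0.64, adjusted p = 0.229 by edgeR), and 1.01 without double-mutant replicate 3 (adjusted p = 0.594). Tff1, with 58.1 to 145 CPM in double-mutant and 22.4 to 83.1 CPM in control mTEClo, was at 1.13 (SE 0.46, adjusted p = 0.322). Spdef was 36.0, 49.8, 39.9 and 39.6 CPM in double-mutant mTEClo and 26.9, 35.6, 31.4 and 22.9 CPM in control mTEClo, without overlap but with a small log2 fold change of 0.50 (SE 0.24, adjusted p = 0.425). The log2 fold change of Scgb1a1 was 0.49 (95% interval -0.03 to 1.00), that of Bpifa1 -0.69 (-1.32 to -0.05) and that of Muc2 0.00 (-1.17 to 1.17).

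In Hnf4g-removed against control mTEClo, 0 of the 10 passed edgeR either, where 0 of 18775 genes were called higher and 0.0959% lower. Tff3, Muc5ac, Spdef and Scgb1a1 had an unadjusted p under 0.05, as did 1538 of all genes. DESeq2 called 1, Tff3. Tff3 had 3.95, 3.53 and 6.25 CPM in Hnf4g-removed mTEClo, all below the controls at 44.2, 17.7, 15.5 and 33.0 CPM. Its log2 fold change was -2.58 (SE 0.56, adjusted p = 0.129 by edgeR and 0.000377 by DESeq2).

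Muc5ac had 387, 235 and 235 CPM in Hnf4g-removed mTEClo, against 18.3, 65.5, 115 and 33.1 CPM in control mTEClo. Each Hnf4g-removed library was at more than 2 times the highest control. The log2 fold change of 2.31 (SE 0.62) did not pass after adjustment over all genes (adjusted p = 0.235 by edgeR). Spdef had 65.4, 56.7 and 37.1 CPM in Hnf4g-removed mTEClo, all above the controls at 26.9, 35.6, 31.4 and 22.9 CPM (0.86 on the log2 scale, SE 0.26, adjusted p = 0.309 by edgeR). Muc2, with 23.4, 13.4 and 11.7 CPM in Hnf4g-removed mTEClo, also lay above all control values of 6.67 to 10.6 CPM, at 1.03 (SE 0.57, adjusted p = 0.686).

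In Hnf4a-removed against control mTEClo, 0 of the 10 passed, where 0.00533% of 18775 genes were called higher and 0 lower by edgeR. At an unadjusted p under 0.05, Scgb1a1 alone would pass, as would 1130 of all genes, and DESeq2 called 0. Scgb1a1 had 51.5, 68.8 and 113 CPM in Hnf4a-removed mTEClo, against 198, 147, 149 and 80.6 CPM in control mTEClo. The ranges overlapped through control replicate 4 (log2 fold change -0.90, SE 0.27, adjusted p = 0.706). Tff3 was at 6.15, 13.7 and 23.9 CPM in Hnf4a-removed mTEClo, also overlapping the controls (-0.94, 95% interval -2.03 to 0.14). Muc2 was scattered in this genotype, at 27.5, 17 and 1.60 CPM.

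**Figure D4:**
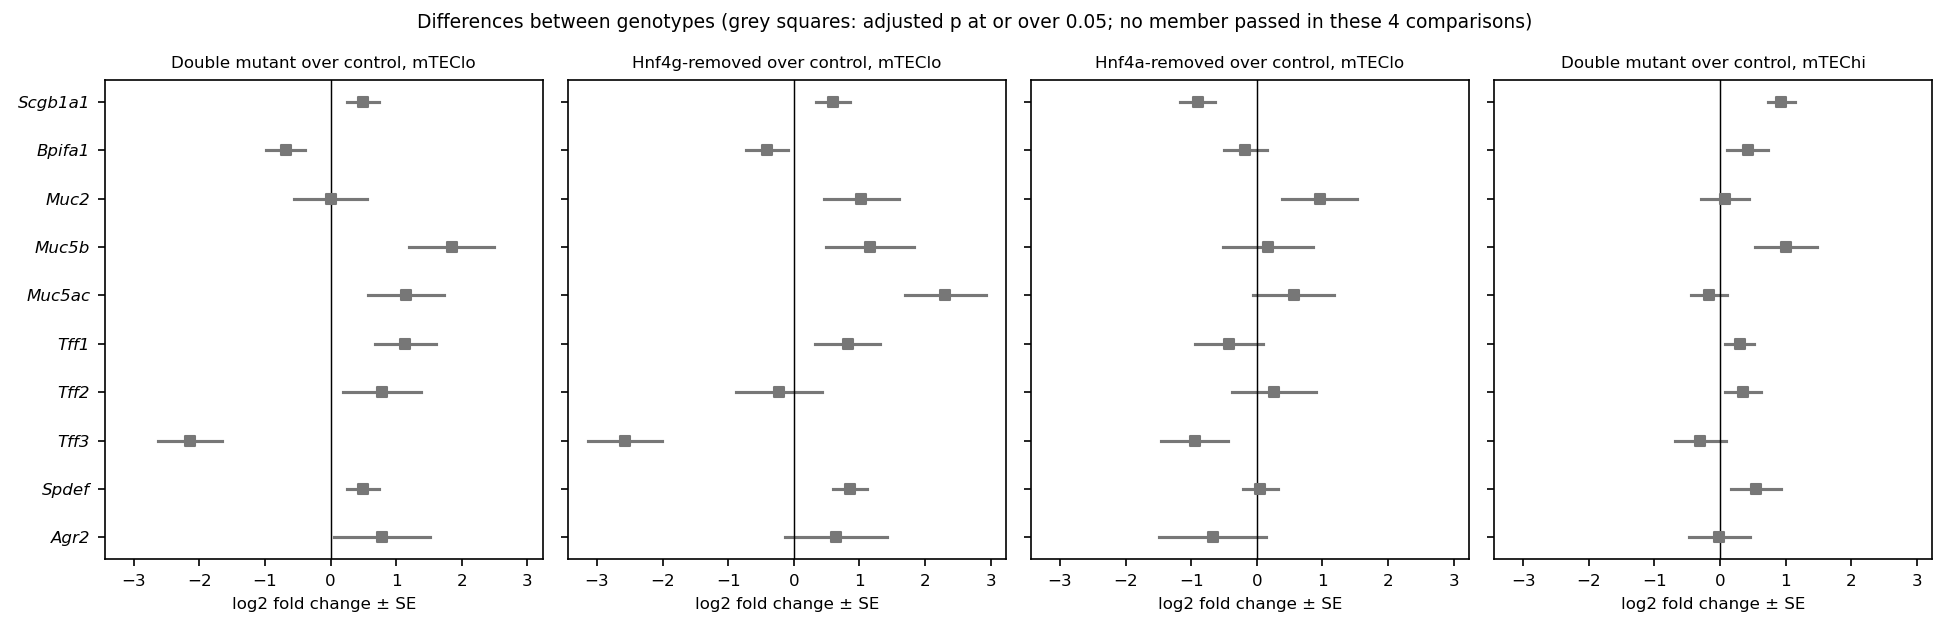
Log2 fold changes with SE (horizontal axis) of the 10 genes in the 3 mutant mTEClo genotypes and in double-mutant mTEChi, each over its control; grey squares mark adjusted p at or over 0.05, which holds for all points shown. Tff3 lies farthest left in double-mutant (-2.14), Hnf4g-removed (-2.58) and Hnf4a-removed (-0.94) mTEClo, in the last just beyond Scgb1a1 (-0.90). In double-mutant mTEChi Tff3 is nearer 0 (-0.30).

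The mTEClo genotypes form a square of 2 genes, and after the values had been seen the 14 libraries were also compared by Hnf4g genotype, averaged over the Hnf4a genotypes. Of the 10 genes, 1 was higher and 1 lower in Hnf4g -/- than in Hnf4g +/- mTEClo by edgeR, where 0.117% of 18775 genes were called higher and 0.708% lower (0.826% in all). Scgb1a1 had 177, 206, 197 and 225 CPM in double-mutant and 233, 161 and 259 CPM in Hnf4g-removed mTEClo, against 51.5, 68.8 and 113 CPM in Hnf4a-removed and 198, 147, 149 and 80.6 CPM in control mTEClo. The Hnf4g -/- libraries were above all Hnf4g +/- libraries except control replicate 1. The averaged log2 fold change was 1.00 (SE 0.19, adjusted p = 0.0172 by edgeR), and 0.95 without Hnf4a-removed replicate 2 (adjusted p = 0.0613).

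Tff3 was lower by the same comparison, at 2.77 to 10.3 CPM in the Hnf4g -/- libraries and 6.15 to 44.2 CPM in the Hnf4g +/- libraries. Only Hnf4a-removed replicate 1 of the Hnf4g +/- libraries reached down into the Hnf4g -/- range. The averaged log2 fold change was -1.89 (SE 0.38, adjusted p = 0.0253 by edgeR). It did not pass without control replicate 4 (adjusted p = 0.054), Hnf4a-removed replicate 3 (0.0963), Hnf4g-removed replicate 1 (0.0788) or Hnf4g-removed replicate 2 (0.0773). Muc5ac (1.45, SE 0.44), Muc5b (1.42, SE 0.49) and Tff1 (1.19, SE 0.36) did not pass (adjusted p = 0.183, 0.263 and 0.18 by edgeR), though Muc5ac did with the replicate number as a block (1.68, adjusted p = 0.0453). Spdef, at 0.65 (SE 0.19), did not pass by edgeR (adjusted p = 0.147) and did by DESeq2 (adjusted p = 0.0358). Averaged by Hnf4a genotype, fl/fl over fl/+, 0 of the 10 passed by edgeR or DESeq2, where 0.00533% of genes were called higher and 0 lower. At an unadjusted p under 0.05 Scgb1a1 would pass, at -0.51 (SE 0.19), as would 1641 of all genes. The test of whether the 2 genotypes add up on the log scale called 0 of the 10 and 0 of all genes by edgeR, with Muc2 at an unadjusted p of 0.0262 among 1473 genes under 0.05, and 0 of the 10 by DESeq2.

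Of 58 other secretory genes tested in double-mutant mTEClo, 2 were lower by edgeR, against 0.74% of all genes called in either direction, and 14 had an unadjusted p under 0.05. In Hnf4g-removed mTEClo 1 of the 58 was lower. Muc13 averaged 15.0 ± 5.30 CPM in double-mutant (n = 4) and 14.7 ± 6.5 CPM in Hnf4g-removed mTEClo (n = 3), against 59.3 ± 10.9 CPM in control mTEClo (n = 4), and passed in both (log2 fold changes -1.99, SE 0.30, and -2.02, SE 0.34). Reg3g, a secreted antimicrobial lectin, averaged 1625 ± 186 CPM in double-mutant and 4066 ± 1103 CPM in control mTEClo (-1.32, SE 0.24, adjusted p = 0.0174 by edgeR). By edgeR no gastric product, folding gene or listed transcription factor passed in these comparisons. Of the intestinal goblet products 4 of 10 had an unadjusted p under 0.05 in double-mutant mTEClo, all lower, and of the airway partners 2 of 16 were higher and 3 lower. For the lists with no call, 0 of 6, 2 of 16 and 3 of 10 would pass in double-mutant mTEClo, and 2 of 6, 1 of 16 and 2 of 10 in Hnf4g-removed mTEClo. In Hnf4a-removed mTEClo no gene of the 5 secretory lists passed, and 3 of 58 had an unadjusted p under 0.05. In the comparison by Hnf4g genotype the factor Atoh1 was lower (adjusted p = 0.0289 by edgeR), with 0 to 5 reads in double-mutant and 0 to 3 in Hnf4g-removed mTEClo, against 5 to 21 in Hnf4a-removed and 24 to 34 in control mTEClo. Microfold markers moved with Tff3 there, with 6 of 8 lower, and summed to 2802 to 3192 CPM in double-mutant and 1992 to 3279 CPM in Hnf4g-removed mTEClo, against 3641 to 5142 CPM in Hnf4a-removed and 3187 to 4453 CPM in control mTEClo. In double-mutant mTEClo the tuft markers summed to 9290.4 to 10519.5 CPM, against 6614 to 9004 CPM in control mTEClo, with 1 of 9 called higher and 6 higher at an unadjusted p under 0.05. The mTEC markers summed to 5824 to 6321 CPM in double-mutant and 6815 to 9525 CPM in control mTEClo. By edgeR 0 of 11 passed, and 7 were lower at an unadjusted p under 0.05. Aire averaged 190.2 ± 37.2 CPM in double-mutant and 399.7 ± 144 CPM in control mTEClo (SD, n = 4 each). The part of these cells in the levels of the 10 genes was not tested.

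In double-mutant against control mTEChi, 0 of the 10 genes passed edgeR, where 0.038% of 18413 genes were called higher and 0.597% lower. At an unadjusted p under 0.05 Scgb1a1 alone would pass, as would 2055 of all genes, and DESeq2 called it too. Scgb1a1 had 192, 141, 199 and 131 CPM in double-mutant mTEChi, against 96.1, 99.4, 101 and 52.2 CPM in control mTEChi. All double-mutant libraries lay above all controls. Its log2 fold change was 0.94 (SE 0.21, adjusted p = 0.0823 by edgeR and 0.00196 by DESeq2).

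Tff3 overlapped between genotypes in mTEChi, with 16.8, 88.9, 39.1 and 43.6 CPM in double-mutant and 59.3, 49.1, 38.1 and 85.1 CPM in control cells. The double mutants spanned the controls (-0.30, 95% interval -1.14 to 0.55). The test of the difference between the subsets gave a log2 value of 1.84 for Tff3 (SE 0.68, adjusted p = 0.286 by edgeR), so a difference between the subsets was not established. In that test 0 of the 10 genes passed, where 0.0597% of 20095 genes did, 0.0398% with a positive and 0.0199% with a negative difference. At an unadjusted p under 0.05, Tff3 and Bpifa1 would pass, as would 2298 of all genes, and DESeq2 called 0 of the 10. Muc5b was at 8.77, 12.8, 25.2 and 33.2 CPM in double-mutant mTEChi and 6.80, 20.5, 6.11 and 6.96 CPM in control mTEChi, where replicate 2 of the controls lay within the double-mutant range (1.01, 95% interval -0.02 to 2.04). Muc2 was at 0.08 (-0.73 to 0.88) and Agr2 at -0.01 (-1.02 to 0.99).

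Other secretory genes lower in double-mutant mTEChi were Muc13 at 15.2 ± 1.51 CPM against 76.6 ± 13.2 CPM in control mTEChi, Reg3g at 898 ± 202 against 2528 ± 367 CPM, Pigr at 134 ± 46.6 against 266 ± 12.9 CPM and Spink4 at 15.4 ± 2.45 against 35.5 ± 11.5 CPM (SD, n = 4 each). These were 2 of 17 airway partners and 2 of 11 intestinal goblet products, and in each list 1 gene was higher at an unadjusted p under 0.05 but did not pass by edgeR. No gastric product, folding gene or listed factor passed, and 0 of 8, 2 of 15 and 2 of 10 had an unadjusted p under 0.05. Microfold markers summed to 1017 to 1696 CPM in double-mutant and 1772 to 2618 CPM in control mTEChi, without overlap. By edgeR 0 of the 8 passed, and 5 were lower at an unadjusted p under 0.05. Of 9 tuft markers 1 was higher, Gnat3 (1.19, SE 0.21). The part of these cells in the values of double-mutant mTEChi was not tested.

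The spread of these genes among libraries of 1 genotype was large. Over the 14 mTEClo libraries, the SD of log2(CPM + 1) around the genotype means was 1.35 for Agr2, 1.19 for Muc5b and 0.999 for Muc5ac, and lowest for Spdef (0.403) and Scgb1a1 (0.428). Genes of like level had a median SD of 0.21 beside Agr2, 0.15 beside Muc5b and 0.226 beside Spdef. Each of the 10 was more variable than 94% or more of the genes of its level. Agr2 alone ranged over 29.1, 35.9, 219.8 and 79.0 CPM in double-mutant mTEClo and over 9.69, 55.9, 125 and 19.6 CPM in control mTEClo.

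Within mTEClo no pair of the genes passed a test of varying together. Of 45 pairs over the 14 libraries, 24 had a positive Pearson r of log2(CPM + 1) and 0 passed after Benjamini-Hochberg adjustment, by Pearson or by Spearman. The strongest pair was Muc5ac with Agr2 (r = 0.766, permutation p = 0.0014, adjusted p = 0.0611; rho = 0.750, permutation p = 0.00326, adjusted p = 0.0733). It had r = 0.681 without the 2 libraries farthest from the Muc5ac median, and r = 0.795 for deviations from the genotype means. Muc5ac with Spdef had r = 0.728 (rho = 0.754, permutation p = 0.00276 and 0.00296, adjusted p = 0.0611 and 0.0733), 0.645 without the farthest libraries and 0.475 for deviations from the genotype means. Muc5b with Agr2 had r = 0.714 (rho = 0.688, permutation p = 0.00435 and 0.00784, adjusted p = 0.0611 and 0.0882), 0.643 without the farthest libraries and 0.670 for deviations from the genotype means. Scgb1a1 and Bpifa1, the airway genes, had r = 0.0565 over the libraries but 0.785 for deviations from the genotype means, a measure added after the values were seen.

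**Figure D5:**
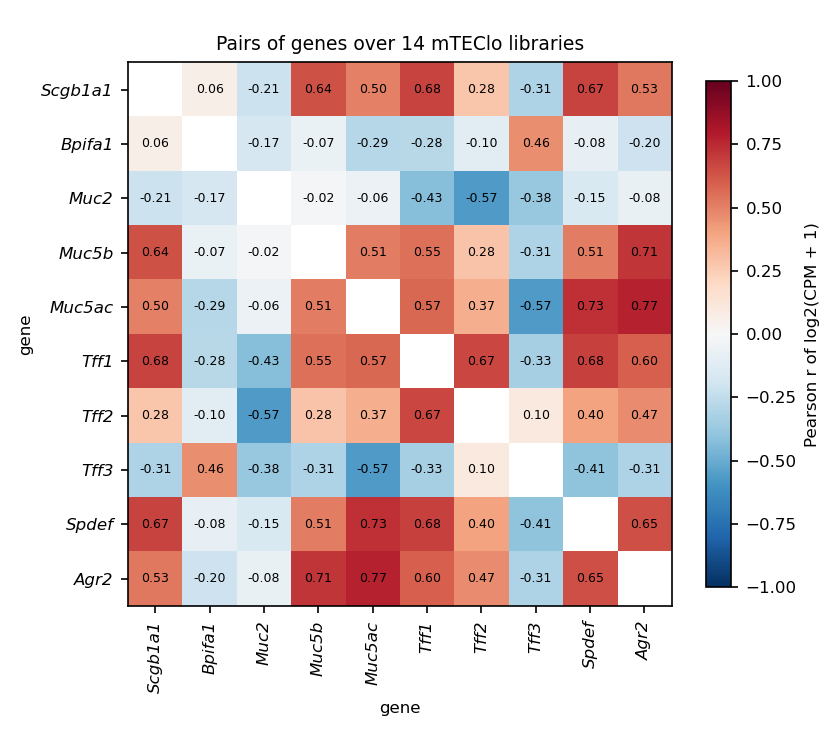
Pearson r of log2(CPM + 1) for each pair of the 10 genes over 14 mTEClo libraries, coloured from -1 (blue) to 1 (red). Muc5b, Muc5ac, Tff1, Spdef and Agr2 form a block of positive values, with Muc5ac and Agr2 highest at 0.766, and Tff3 is negative with 7 of the other 9 genes. These values pool the genotypes. For deviations from the genotype means, those 7 r of Tff3 were 0.381 (Scgb1a1), 0.309 (Muc5b), 0.305 (Spdef), 0.265 (Tff1), 0.0437 (Agr2), -0.0466 (Muc5ac) and -0.424 (Muc2). The negative values of Tff3 thus mostly did not hold among libraries of like genotype.

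Among 11952 other genes with proper symbols and at least 5 CPM, Gucy2c, the gut receptor for guanylin, was most like Tff3 over the 14 mTEClo libraries (Pearson r = 0.888), followed by Btnl2 (0.856), a butyrophilin-like gene. Spdef was most like Eif4g1 (0.898), a translation initiation factor, and Scgb1a1 most like Lactb (0.887). The first match of the other genes ranged down to 0.8 for Bpifa1, with Nfix. These are the highest of many values over few libraries, pool the genotypes and are given as a description. Whether they hold among libraries of like genotype was not tested.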

How the data were processed

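The deposited table held read counts per gene, whole numbers not normalized, for 28 libraries; 0 columns were left without a sample. STAR 2.7.3a, featureCounts and the mm10 build are named in the submitters' processing notes; the sources used here do not give the annotation or the treatment of multiply mapped reads. Per the labels' protocols, cDNA from 1000 cells was amplified, cut with Tn5, amplified again for 18 cycles and read as paired ends of 38 bases, without molecular identifiers, so intervals treat PCR copies as counts.

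The test was the two-sided quasi-likelihood test of edgeR 4.0.16, run in R 4.3.3 (TMM, filterByExpr with minimum count 10 and total 15) on the whole table, with Benjamini-Hochberg adjustment over all genes tested and a threshold of 0.05. All 10 genes passed the filter in every fit. Fits held 6 gate, 14 mTEClo, 8 mTEChi or 16 mTEChi and mTEClo libraries. DESeq2 1.42.0 was an alternative, with no filter, DESeq2 size factors, a replicate block, fewer groups and each library left out. The scripts were tested on simulated data. Over the 36 replicate pairs the chi-square per degree of freedom was 5.93 or more, so no pair agreed within sampling noise. Correlations used log2(CPM + 1) and 1e+05 permutations.

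Named beside the 10 genes are, per list, the called genes of smallest p (up to 4), the best-correlated genes (up to 3), and Hnf4a, Hnf4g and Aire. Fcgbp, Cyp2f2 and Atoh1 between the gates were named outside that rule, after their values were seen. The 10 genes, the lists and the rule were chosen with earlier results of these data known. Same-numbered libraries deviated together little (correlations -0.0197 to 0.0653), except replicate 1 of Hnf4g-removed and control mTEClo (0.216). The numbers were not taken as pairs. Positions are from GENCODE M21, in which 52936 symbols matched.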

Additional observations from a re-analysis of the deposited data

Results flagged for a closer look

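In 2 of 40 sets of 4 libraries, 1 for each of the 10 genes in each group of 4, a library lay far from the other three by Dixon's test; chance alone gives about 1 in 20. Scgb1a1 was at 52.2 CPM in control mTEChi replicate 4, against 96.1 to 101 CPM in the other libraries of that group. Muc5b was at 20.5 CPM in control mTEChi replicate 2, against 6.11 to 6.96 CPM in the others.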

How the results depend on the processing

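Of 1460 values of the 10 genes under alternatives, 1309 kept their direction and their side of the threshold, 15 lost a call, 57 gained one and 79 changed sign. The filter on low counts moved most. Without it the 10 genes gave 7 higher and 0 lower between the gates, where 4259 and 3734 of all genes were called. In control mTEChi against control mTEClo they gave 3 higher and 6 lower (4625 and 3899 of all genes). Double-mutant mTEClo gave 5 and 2 (224 and 743 of all genes). Hnf4g-removed mTEClo gave 6 and 2 (196 and 286), and Hnf4a-removed mTEClo 1 and 2 (93 and 119). By Hnf4g genotype 6 and 2 were called (283 and 580 of all genes). By Hnf4a genotype the counts were 1 and 1 (97 and 349), and for the interaction 2 and 2 (98 and 233). In double-mutant mTEChi 1 was higher and 0 lower (231 and 388), and for the difference between subsets 1 and 0 (273 and 48). Over all genes the fit without the filter called 224 higher and 743 lower in double-mutant mTEClo, against 30 and 109 with the filter, and the cause was not tested. DESeq2 called 121 and 335 genes there, 41 and 102 against 0 and 18 in Hnf4g-removed mTEClo, and 116 and 323 against 7 and 110 in double-mutant mTEChi. Of the 10 genes it called 1 lower in double-mutant and 1 in Hnf4g-removed mTEClo, and 1 higher in double-mutant mTEChi. By Hnf4g genotype it called 2 higher and 1 lower, where 114 and 270 of all genes were called. A fit of 2 groups alone gave 0 higher and 1 lower in double-mutant mTEClo (55 and 240 of all genes). In control mTEChi against control mTEClo it gave 2 higher and 5 lower (4148 and 3791).

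The replicate numbers were not taken as pairs in the main fits. With the replicate block, 2 of the 10 genes were higher and 1 lower by Hnf4g genotype, where 25 and 146 of all genes were called. In double-mutant mTEChi 1 was higher (Scgb1a1) and 0 lower (10 and 79 of all genes). Control mTEChi over control mTEClo gave 2 higher and 5 lower (4421 and 4067), and the entero-hepato gate 6 and 0 (3624 and 3413). Under the block the log2 value was -0.0556 for Tff2 and -0.0143 for Spdef in Hnf4a-removed mTEClo, 0.137 for Agr2 in double-mutant mTEChi and -0.0259 for Spdef between subsets, each of opposite sign to the value without it. Muc2 in double-mutant mTEClo was -0.00625 with DESeq2 size factors, -0.00503 by DESeq2 and -0.00402 with 2 groups alone.

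Leaving out each library in turn gave 0 to 1 higher and 0 to 1 lower by Hnf4g genotype, and 1 to 2 higher and 3 to 6 lower in mTEChi. Log2 values that changed sign ran, between the gates, over -1.55 to 0.13 for Muc5b, -0.21 to 0.75 for Muc5ac and -1.10 to 0.18 for Spdef. In double-mutant mTEClo they ran over -0.28 to 0.20 for Muc2 and -0.12 to 1.68 for Agr2, and in double-mutant mTEChi over -0.19 to 0.54 for Muc2, -0.36 to 0.073 for Muc5ac and -0.29 to 0.54 for Agr2. In Hnf4a-removed mTEClo they ran over -0.43 to 0.13 for Bpifa1, -0.37 to 0.53 for Muc5b, -0.50 to 1.13 for Muc5ac, -0.95 to 0.090 for Tff1, -0.95 to 0.76 for Tff2, -0.26 to 0.35 for Spdef and -1.23 to 0.22 for Agr2. By Hnf4g genotype they ran over -0.23 to 0.41 for Muc2 and -0.14 to 0.76 for Tff2, and by Hnf4a genotype over -0.41 to 0.23 for Muc2, -0.32 to 0.20 for Tff1 and -0.72 to 0.18 for Agr2. For the interaction of the genotypes they ran over -0.48 to 0.15 for Bpifa1, -0.32 to 1.07 for Muc5b and -0.10 to 1.38 for Agr2. For the difference between subsets they ran over -0.20 to 0.54 for Muc2, -1.17 to 0.027 for Muc5b, -0.72 to 0.15 for Tff2, -0.16 to 0.32 for Spdef and -1.69 to 0.12 for Agr2. None of these passed in the filtered edgeR fits of all groups and libraries.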
